A study of Mus musculus with 6 samples.

Results

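The growth hormone receptor, STAT5 and IGF axis was described through 10 listed genes: the receptor genes Ghr and Prlr, the signal transducers Stat5a and Stat5b, the feedback inhibitors Socs2 and Cish, the secreted proteins Igf1 and Igfals, and the transcription factors Bcl6 and Cux2. Of these, 9 were matched to 24 probe sets by the platform annotation, out of 18194 genes with a probe set of their own, and Prlr was not analysed here. Each gene was represented by its probe set with the highest mean signal, and its other probe sets served as a check. Values under 221.4, the 50th percentile of the deposited signals, were set to that floor, and 13989 genes exceeded it on at least 1 array. All 9 genes did so, and 8 of them, all but Cux2, exceeded it on all 6 arrays.

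The study asked how a fast-food diet and the inhibition of the epidermal growth factor receptor change the mouse liver. Liver RNA of male C57BL6/J mice, aged 6 to 8 weeks at the start, was pooled from 3 to 4 livers per group and measured on Affymetrix Mouse Genome 430 2.0 arrays, with 1 array in each of 6 groups. The groups were a fast-food diet with canertinib, the fast-food diet alone, and chow, each in a study of 2 months and in one of 5 months. The diet contained 0.2% cholesterol and, by weight, 34% sucrose and 21% fat, and the mice drank water with glucose and fructose. Canertinib blocks the kinases of the epidermal growth factor receptor and its ERBB relatives. It was in the food for all of the first study, the daily dose being estimated at 80 mg/kg. In the second it was given into the peritoneum at 80 mg/kg on 5 days a week during the final 5 weeks, and the mice on fast food alone received the PBS vehicle. No injection is named for the 5-month chow mice, so diet and injection cannot be told apart in comparisons with them.

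Growth hormone from the pituitary binds its receptor on hepatocytes, and the receptor-bound kinase JAK2 phosphorylates STAT5, which enters the nucleus and activates genes. Among these are Igf1 and Igfals, whose products circulate together with an IGF binding protein and carry the growth signal to other tissues, and Socs2 and Cish, whose products dampen the receptor's signal. In rodents the liver also reads the sex-specific rhythm of growth hormone through STAT5b, with Bcl6 higher in male and Cux2 higher in female liver.

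STAT5 binds the palindrome TTCNNNGAA, which reads the same on both strands, so matches to it near the start sites of the genes are shown first. In the RefSeq promoter table for mouse build GRCm38.p6, windows from 250 bases before to 50 bases after a start were searched. The 10 genes had 18 windows belonging to 9 of them, and 6 windows, of Prlr, Cish, Igfals and Bcl6, held a match. Socs2 had no window there, so its promoter was not searched. Of all 32851 windows, 8.3% held one and 0.457% held 2 or more. BCL6 binds a motif of similar letters, so a match does not say which factor could bind there. The stretches below give the matches of the analysed genes in capitals, each written 5′ to 3′ on the strand of its gene.
Cish, chr9:107296654-107296683, + strand, over the start site: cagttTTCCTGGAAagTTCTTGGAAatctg
Igfals, first start, chr17:24877598-24877626, + strand: gatctataatTTCTCAGAAaagaggctga
Igfals, second start, chr17:24878163-24878191, + strand: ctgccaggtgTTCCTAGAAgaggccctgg
Bcl6, first start, chr16:23988952-23988980, - strand: agcaaattagTTCTCAGAAttccagaggc
Bcl6, second start, chr16:23981433-23981461, - strand: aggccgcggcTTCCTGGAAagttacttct
Bcl6, second start, chr16:23981387-23981415, - strand: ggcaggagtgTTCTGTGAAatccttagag
Bcl6, second start, chr16:23981353-23981381, - strand: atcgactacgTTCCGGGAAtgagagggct
Counted from the start site, the pair in Cish begins at bases 1 and 12, the matches of Igfals at base -236 of its first start and -58 of its second, and those of Bcl6 at base -118 of its first start and -168, -122 and -88 of its second. Binding was not measured on these arrays, and a match is a description of the sequence.

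With 1 array per group, a difference within a study has no replicate check and no error. A gene was called different between arrays from 2-fold upward. The chow arrays of the 2 studies gave the background: between them 2.6% of measured genes passed that threshold, none of the 9 did, and the differences of all measured genes had an SD of 0.40 on the log2 scale. A limma fit to all 6 arrays, with treatment and study as terms, took the studies as repeats of each other and had 2 residual degrees of freedom, although age, route and duration of treatment differed between them. Fewer cells of a type and less RNA per cell cannot be told apart in these pooled tissue samples.

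The axis did not move as a block. On fast food with canertinib against fast food alone, the inhibitors and secreted products were higher at both times and Ghr was lower, while on fast food against chow the same inhibitors and secreted products and Ghr were all lower. The order of the arrays was counted over the 8 genes above the floor on all 6 arrays and set against the 9874 genes of the series above it on all. Cux2 was left out because it passed the floor on the canertinib arrays alone, which fixes its place above the other groups. Both fast-food arrays lay below both chow arrays for 5 of the 8 genes, Ghr, Socs2, Cish, Igf1 and Igfals, as they did for 20.0% of the 9874. Both canertinib arrays lay above both fast-food arrays for 4 of the 8, Socs2, Cish, Igf1 and Igfals, against 20.0% of the 9874, and below them for Ghr alone, against 21.4%. These comparisons share the fast-food arrays, so a low value there enters both with opposite sign. The comparison of canertinib with chow does not use them, but shares an array with each of the others: there Stat5a, Stat5b and Socs2 were above both chow arrays, against 21.4% of the 9874, and Ghr and Bcl6 were below both, against 24.2%. With the other Stat5b probe set, both canertinib arrays lay below both chow arrays. Ghr probe set 1451871_a_at broke the order given for Ghr. Its 2-month fast-food array, at 4443.2, lay above both chow arrays, at 4145.0 and 3512.9. Its 2-month canertinib array, at 3073.4, lay above its 5-month fast-food array, at 2815.2.

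**Figure D1:**
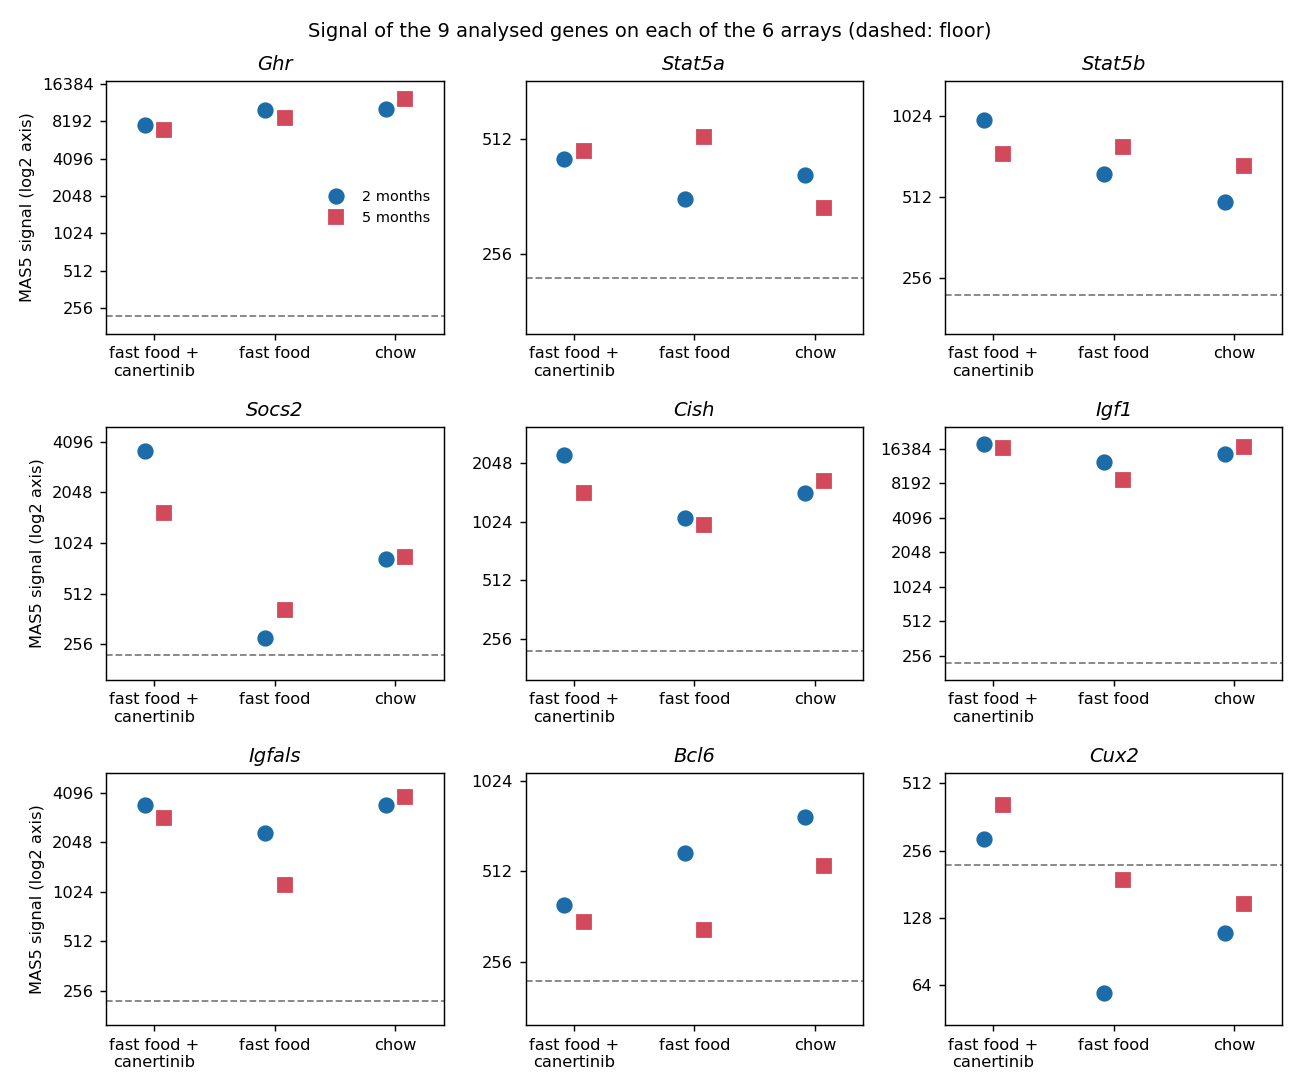
MAS5 signal of the 9 analysed genes (log2 axis, a scale of its own in each panel) in fast food with canertinib, fast food and chow livers, 1 pooled array per point, with circles for 2 months, squares for 5 months and a dashed line at the floor of 221.4. Socs2 was highest on both canertinib arrays and lowest on both fast-food arrays, and Ghr was lowest on both canertinib arrays.

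Ghr encodes the growth hormone receptor. Its signal was 7691.9 at 2 months and 6973.2 at 5 months in canertinib livers, 10093.0 and 8745.3 in fast-food livers, and 10348.6 and 12339.0 in chow livers. With the probe set used, the canertinib arrays were the lowest at either time and did not overlap those of the other groups. With 1451871_a_at the 2-month canertinib array, at 3073.4, lay above the 5-month fast-food array, at 2815.2. At 2 months, with the probe set used, fast food and chow differed by less than the chow arrays did from each other. On the log2 scale canertinib differed from fast food by -0.39 at 2 months and -0.33 at 5 months, and from chow by -0.43 and -0.82. The 2 other Ghr probe sets were also lower with canertinib than with fast food, by -0.78 and -0.58 for 1451501_a_at and by -0.53 and -0.72 for 1451871_a_at. At 5 months both put canertinib at least 2-fold below chow, with 2.35-fold and 2.06-fold lower signals, while the brightest probe set had 1.77-fold. In limma, canertinib against chow gave Ghr a log2 difference of -0.63 (SE 0.17, adjusted p = 0.184), and against fast food -0.36 (SE 0.17, adjusted p = 0.421).

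With the probe sets used, the transducers Stat5a and Stat5b did not separate canertinib from fast food. With these probe sets both were higher with canertinib than on either chow array. STAT5B is the main STAT5 protein of liver, and STAT5A is its close paralog. Stat5a had 454.3 and 478.2 in canertinib livers at 2 and 5 months, 358.1 and 520.3 in fast-food livers, and 411.8 and 337.3 in chow livers. Stat5b had 990.3 and 742.5 in canertinib livers, 625.4 and 786.7 in fast-food livers, and 490.7 and 667.6 in chow livers. For both genes the canertinib and fast-food arrays overlapped, and the highest signal was 1.54-fold the lowest for Stat5a and 2.02-fold for Stat5b. The one 2-fold difference, Stat5b 2.02-fold higher with canertinib than with chow at 2 months, was not seen with its other probe set, 1422102_a_at, where the log2 difference was -0.25. That probe set had 594.6 and 667.3 in canertinib livers, 719.5 and 671.0 in fast-food livers, and 709.3 and 717.3 in chow livers, so canertinib was lowest. The other Stat5a probe set, 1450259_a_at, was above the floor on 3 arrays. Its log2 differences between canertinib and chow were 0.16 and -0.19. Neither gene passed the threshold in limma, with adjusted p values of 0.906 for Stat5a and 0.688 for Stat5b between canertinib and fast food.

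Socs2 had the widest range of the 9 genes. It encodes the SOCS protein that restrains growth hormone receptor signalling, and its transcript is a STAT5 target. Its signal was 3576.6 at 2 months and 1541.3 at 5 months in canertinib livers, 278.5 and 410.2 in fast-food livers, and 821.2 and 845.7 in chow livers. No group overlapped another, and the chow arrays were nearly equal. Canertinib livers had 12.8-fold and 3.76-fold the signal of fast-food livers, and 4.36-fold and 1.82-fold that of chow livers. Fast-food livers had a 2.95-fold and 2.06-fold lower signal than chow livers.

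The second Socs2 probe set built on the same RefSeq transcript, 1418507_s_at, had 2332.1 and 1234.2 in canertinib livers, 124.0 and 180.8 in fast-food livers, and 391.7 and 303.5 in chow livers. Its fast-food arrays were below the floor, so the canertinib signal was higher by at least 10.5-fold at 2 months and by at least 5.57-fold at 5 months. The other 4 Socs2 probe sets, built on expressed sequence tags, did not show this: 1442586_at was bright on all arrays with log2 differences of 0.17 and -0.22, 1438470_at passed the floor on 2 arrays, and 1441476_at and 1446085_at on none. In limma, Socs2 differed by 2.80 between canertinib and fast food (SE 0.43, adjusted p = 0.0739) and by -1.30 between fast food and chow (SE 0.43, adjusted p = 0.421).

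Cish, the other feedback inhibitor, encodes an SH2 protein that docks on activated cytokine receptors. Its single probe set had 2256.7 and 1440.9 in canertinib livers at 2 and 5 months, 1078.9 and 984.9 in fast-food livers, and 1448.0 and 1655.8 in chow livers. The fast-food arrays were the lowest, and the 5-month canertinib array lay just under the chow arrays. Canertinib was 2.09-fold and 1.46-fold above fast food, with a limma difference of 0.81 (SE 0.23, adjusted p = 0.205). Against chow the log2 differences were 0.64 at 2 months and -0.20 at 5 months.

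**Figure D2:**
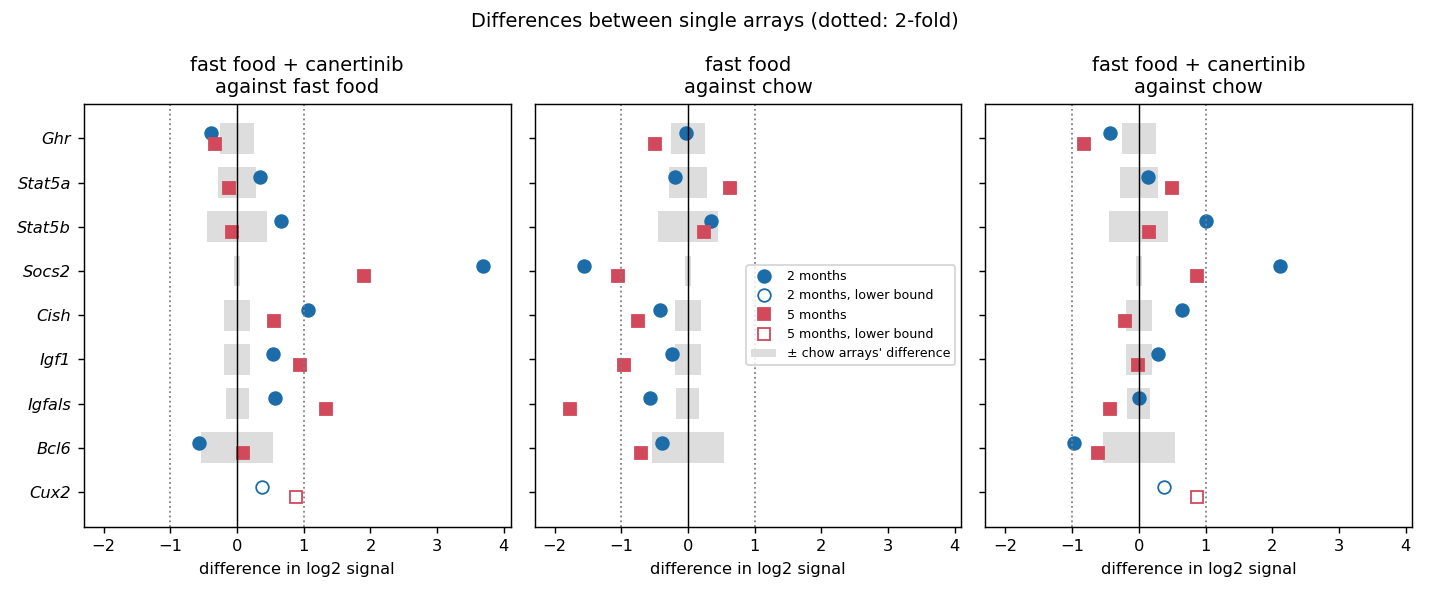
Differences in log2 signal for the 9 genes in 3 comparisons, with circles for 2 months, squares for 5 months, open symbols for lower bounds where an array lay at the floor, grey bars for the size of the difference between the chow arrays, and dotted lines at 2-fold. Socs2 lies outside its grey bar in every comparison, while Igf1 with canertinib differs from chow by 0.29 and -0.02.

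Igf1 encodes insulin-like growth factor 1, most of which circulates from the liver. Its signal was 18138.1 and 16733.5 in canertinib livers at 2 and 5 months, 12513.2 and 8688.6 in fast-food livers, and 14824.3 and 16934.0 in chow livers. The fast-food arrays were the lowest, and the canertinib and chow arrays overlapped. Canertinib was 1.45-fold and 1.93-fold above fast food, and fast food was 1.18-fold and 1.95-fold below chow. The 3 other Igf1 probe sets had the same signs in both comparisons at both times, with log2 differences of 0.63 to 0.80 between canertinib and fast food. The limma difference between canertinib and fast food was 0.74 (SE 0.22, adjusted p = 0.223).

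Igfals encodes the acid-labile subunit, which locks IGF1 and its binding protein into the long-lived complex of the blood. Its single probe set had 3457.8 and 2871.6 in canertinib livers, 2328.5 and 1134.7 in fast-food livers, and 3444.1 and 3881.4 in chow livers. The fast-food arrays were again the lowest, and canertinib at 2 months was level with chow. At 5 months fast food was 3.42-fold below chow and canertinib was 2.53-fold above fast food, while at 2 months both differences were under 1.5-fold. In limma, fast food against chow gave -1.17 (SE 0.29, adjusted p = 0.322) and canertinib against fast food 0.95 (SE 0.29, adjusted p = 0.228).

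Bcl6 encodes a transcriptional repressor that competes with STAT5 for some sites in male liver. Its signal was 396.1 and 348.8 in canertinib livers, 591.2 and 327.3 in fast-food livers, and 777.3 and 534.2 in chow livers. Canertinib was below both chow arrays, with log2 differences of -0.97 and -0.62, but overlapped fast food, from which it differed by -0.58 at 2 months and 0.09 at 5 months. The chow arrays themselves differed by -0.54, 5 months against 2 months, and the second probe set, 1421818_at, had that difference with the opposite sign, 0.66.

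Cux2, a homeobox factor of female mouse liver, was above the floor on the canertinib arrays alone, where its signal was 287.9 at 2 months and 407.2 at 5 months. It was below the floor in fast-food livers, at 59.4 and 189.2, and in chow livers, at 109.8 and 147.4. The bounds were therefore at least 1.30-fold at 2 months and 1.84-fold at 5 months over either group. A second probe set, 1450181_at, had 717.6 on the 2-month canertinib array and was below the floor on the other 5. These low signals give a bound and no more.

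Counted by the 2-fold threshold, few of the 9 genes were called in any comparison. Between canertinib and fast food, Socs2 and Cish were higher at 2 months, where 3.55% of all genes were, and Socs2 and Igfals at 5 months, where 2.19% were, and none of the 9 was lower, against 3.26% and 2.73% of genes. Between fast food and chow, Socs2 was lower at 2 months, where 1.55% of genes were, and Socs2 and Igfals at 5 months, where 1.83% were, and none was higher, against 1.98% and 2.72%. Between canertinib and chow, Stat5b and Socs2 were higher at 2 months, where 3.8% of genes were, none was lower, against 2.74%, and none was called at 5 months, where 2.82% of genes were higher and 2.72% lower. Over the 8 genes without Cux2 the median log2 difference between canertinib and fast food was 0.55 at 2 months and 0.32 at 5 months, beside -0.02 and 0.00 for the 9874 genes above the floor on all arrays. Between fast food and chow it was -0.32 and -0.73, beside 0.01 and -0.04.

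None of the 9 genes reached an adjusted p of 0.05 in limma, adjusted over all 13989 genes, where 0.715% of genes did between canertinib and fast food and 0.0286% between fast food and chow. Among the 8 genes above the floor on all arrays, Cish, Igf1, Igfals and Socs2 had an unadjusted p under 0.05 between canertinib and fast food, as did 16.2% of the 9874 genes. The same 4 had one between fast food and chow, against 9.9%.

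**Figure D3:**
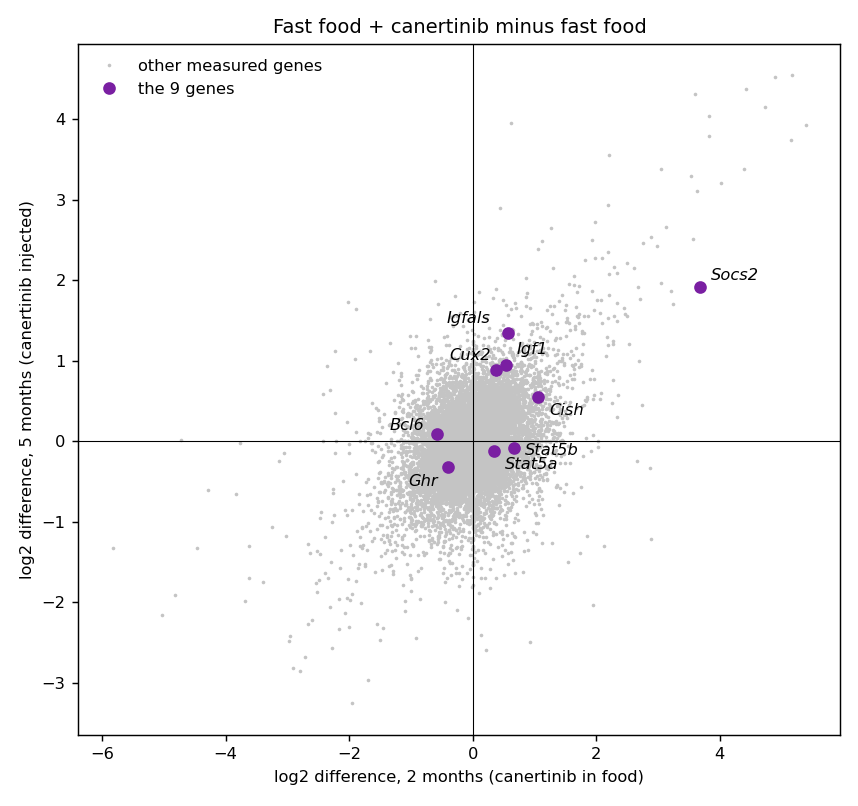
Log2 difference between fast food with canertinib and fast food alone for each measured gene, at 2 months on the horizontal and at 5 months on the vertical axis, with the 9 genes in purple and the other measured genes in grey. Socs2 stands at 3.68 and 1.91, and Ghr is the one named gene below zero at both times.

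Hepatocyte markers were higher with canertinib than with fast food, as were Cish, Igf1 and Igfals. All 9 measured markers were above the floor on every array, and their summed signal was 620590.9 and 507944.3 in canertinib livers, 485431.0 and 365632.6 in fast-food livers, and 417529.0 and 466064.9 in chow livers. When the arrays were centred on these markers, an alternative chosen after seeing the data, the median of all genes shifted by -0.35 and -0.50 between canertinib and fast food. Relative to the markers, the differences at 2 and 5 months were 3.34 and 1.41 for Socs2, 0.72 and 0.05 for Cish, 0.19 and 0.45 for Igf1, 0.22 and 0.84 for Igfals, and -0.74 and -0.82 for Ghr. With that centring limma called Socs2 and Ghr between canertinib and fast food, beside 1277 of 13989 genes in all, against 100 without it. At the 2-fold threshold the centring put 1251 and 1668 genes lower at 2 and 5 months, and 213 and 106 higher. The ratio of 3′ to 5′ signal of the actin control transcript, a sign of RNA quality, was 1.19 and 1.12 on the log2 scale in canertinib livers, 0.85 and 0.98 in fast-food livers, and 0.94 and 0.85 in chow livers. The same ratio of the Gapdh control transcript was -0.20 and -0.14 in canertinib livers, -0.30 and -0.22 in fast-food livers, and -0.18 and -0.09 in chow livers, where the canertinib arrays overlapped the chow arrays. For either control, both canertinib arrays lay above both fast-food arrays. The part of RNA quality in these results was not tested.

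**Figure D4:**
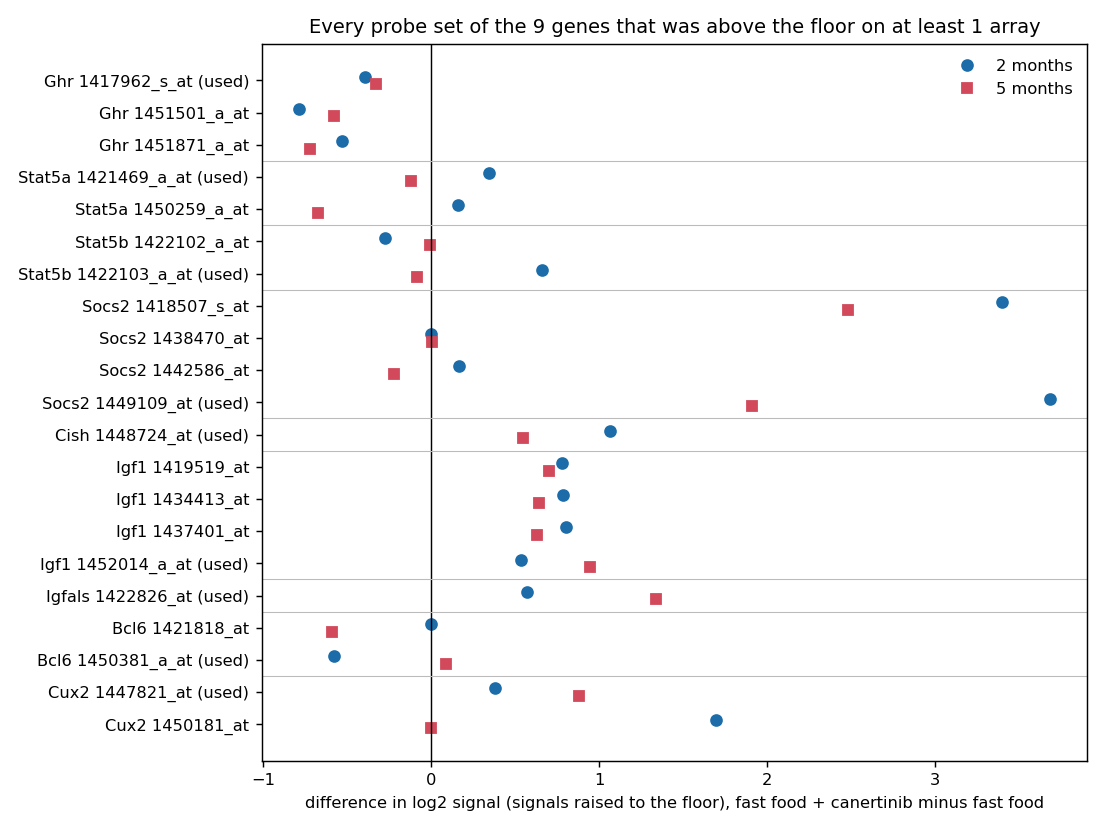
Log2 difference between fast food with canertinib and fast food alone, with signals raised to the floor, for each probe set of the 9 genes that was above the floor on at least 1 array, with circles for 2 months and squares for 5 months. The probe sets of Ghr and those of Igf1 lie on one side of zero, while those of Socs2, Stat5b and Bcl6 are spread.

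The genes around the axis were taken from 9 lists of 110 pathway genes, of which 94 were measured. Past 2-fold between canertinib and fast food there were 19 higher and 11 lower genes at 2 months, and 22 higher and 5 lower genes at 5 months, with a median log2 difference of 0.23 and 0.20 over the 94. Of all measured genes, 3.55% and 2.19% were higher and 3.26% and 2.73% lower. These shares also stand beside each list count between these groups below. Of the 13 measured genes of receptor-proximal signalling, 1 was at least 2-fold higher with canertinib at 2 months and none at 5 months, and none was lower at either time. Jak2, the kinase bound to the receptor, had log2 differences of 0.23 and -0.37.

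Among the other SOCS and PIAS inhibitors, 1 of 10 was at least 2-fold higher with canertinib at each time, and it was Socs3, which restrains cytokine signalling through STAT3. Its signal was 1824.8 and 1512.9 in canertinib livers, 163.1 and 386.4 in fast-food livers, and 225.9 and 524.3 in chow livers. The log2 difference from fast food was at least 3.04 at 2 months and 1.97 at 5 months (limma 2.51, SE 0.40, adjusted p = 0.0752). Socs1, a broad inhibitor of JAK kinases, had 0.08 at 2 months and a bound of 0.03 at 5 months.

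Stat3, the transducer of interleukin-6 signalling in hepatocytes, was the one of 3 measured other STAT genes past 2-fold. It rose with canertinib, with 5904.6 and 5282.0 in canertinib livers, 2168.6 and 2627.2 in fast-food livers, and 3036.8 and 3316.0 in chow livers (limma 1.23, SE 0.15, adjusted p = 0.0462). Of 14 measured genes of interleukin-6 and acute phase signalling, 8 at 2 months and 9 at 5 months were at least 2-fold higher with canertinib and none was lower, with list medians of 1.28 and 1.17. The acute phase genes Orm2, Apcs and Lcn2 rose with canertinib, with limma differences of 4.71 (adjusted p = 0.00521), 3.42 (adjusted p = 0.00787) and 4.66 (adjusted p = 0.0192). Osmr, the oncostatin M receptor gene, was at least 1.78 higher on the log2 scale at 2 months and 1.21 higher at 5 months. Saa1 and Saa2, the serum amyloid A genes, had log2 differences of 2.98 and 2.42 and of 5.18 and 4.55, and the fibrinogen gene Fgb had 1.36 and 1.47. Lifr, the leukaemia inhibitory factor receptor gene, had -1.86 and -2.57 between fast food and chow, and -0.03 and 1.10 between canertinib and fast food.

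Neutrophil markers were higher beside these genes. Their summed signal was 15699.1 and 16864.2 in canertinib livers, 3502.2 and 3181.5 in fast-food livers, and 3384.0 and 3567.8 in chow livers, and 4 of 8 measured markers at 2 months and 5 at 5 months were at least 2-fold higher with canertinib. S100a8 was below the floor in 2-month fast-food livers, at 121.7, and had 4775.6 with canertinib. The granule gene Camp was below the floor on every array. The part of these cells in the results was not tested.

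The IGF binding proteins did not move together. Igfbp1, a short-lived binding protein that insulin represses in liver, had 59873.4 and 28614.9 in canertinib livers, 5029.4 and 5013.9 in fast-food livers, and 2890.8 and 1300.6 in chow livers. The canertinib arrays were the highest and the chow arrays the lowest, and no group overlapped another. Igfbp1 rose with canertinib over fast food, with log2 differences of 3.57 and 2.51 (limma 3.04, SE 0.30, adjusted p = 0.0274). Of the 7 binding protein genes, Igfbp1 was the one at least 2-fold higher with canertinib at either time.

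Igfbp3, whose product is the usual partner of IGF1 and the acid-labile subunit, had 828.5 and 316.1 in canertinib livers, 1084.8 and 887.2 in fast-food livers, and 616.3 and 566.0 in chow livers. It was highest on fast food at each time, where Igf1 and Igfals were lowest, and was 1.49 lower on the log2 scale with canertinib than with fast food at 5 months (limma over both studies -0.94, SE 0.36, adjusted p = 0.318). In liver Igfbp3 comes from non-parenchymal cells, and the summed signal of 10 stellate cell markers was 22394.1 and 16659.2 in canertinib livers, 24082.2 and 30336.1 in fast-food livers, and 14213.3 and 11800.6 in chow livers. Dcn alone gave 12830.6 of the sum in 2-month canertinib livers. Col1a1 was below the floor in chow livers, at 45.3 and 66.8, and in 5-month canertinib livers, at 33.3. The part of stellate cells in the Igfbp3 values was not tested. Igfbp2, another liver binding protein, had log2 differences of -0.01 and -0.33 between canertinib and fast food and of -0.49 and -0.67 between fast food and chow.

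Of 11 measured genes for IGF2, receptors, adaptors and IGFBP proteases, 2 passed 2-fold upward and 1 downward with canertinib at 2 months, and 1 upward at 5 months. Irs2, the adaptor of the insulin receptor that hepatocytes induce in fasting, had 1324.7 and 1274.3 in canertinib livers, 338.9 and 411.1 in fast-food livers, and 405.6 and 646.8 in chow livers (limma 1.80 between canertinib and fast food, SE 0.26, adjusted p = 0.0659). The receptor genes moved less: Insr had log2 differences of 0.64 and 0.48 and Igf1r of 0.55 and -0.41. Among 14 liver transcription factors, 1 was at least 2-fold higher and 1 lower with canertinib at 2 months, and 3 were higher at 5 months. Onecut1, a hepatocyte factor that growth hormone induces in rodents, had 743.5 and 672.1 in canertinib livers, 518.2 and 281.3 in fast-food livers, and 769.9 and 585.4 in chow livers. It was lowest on fast food at each time, with log2 differences of 0.52 and 1.26 between canertinib and fast food.

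**Figure D5:**
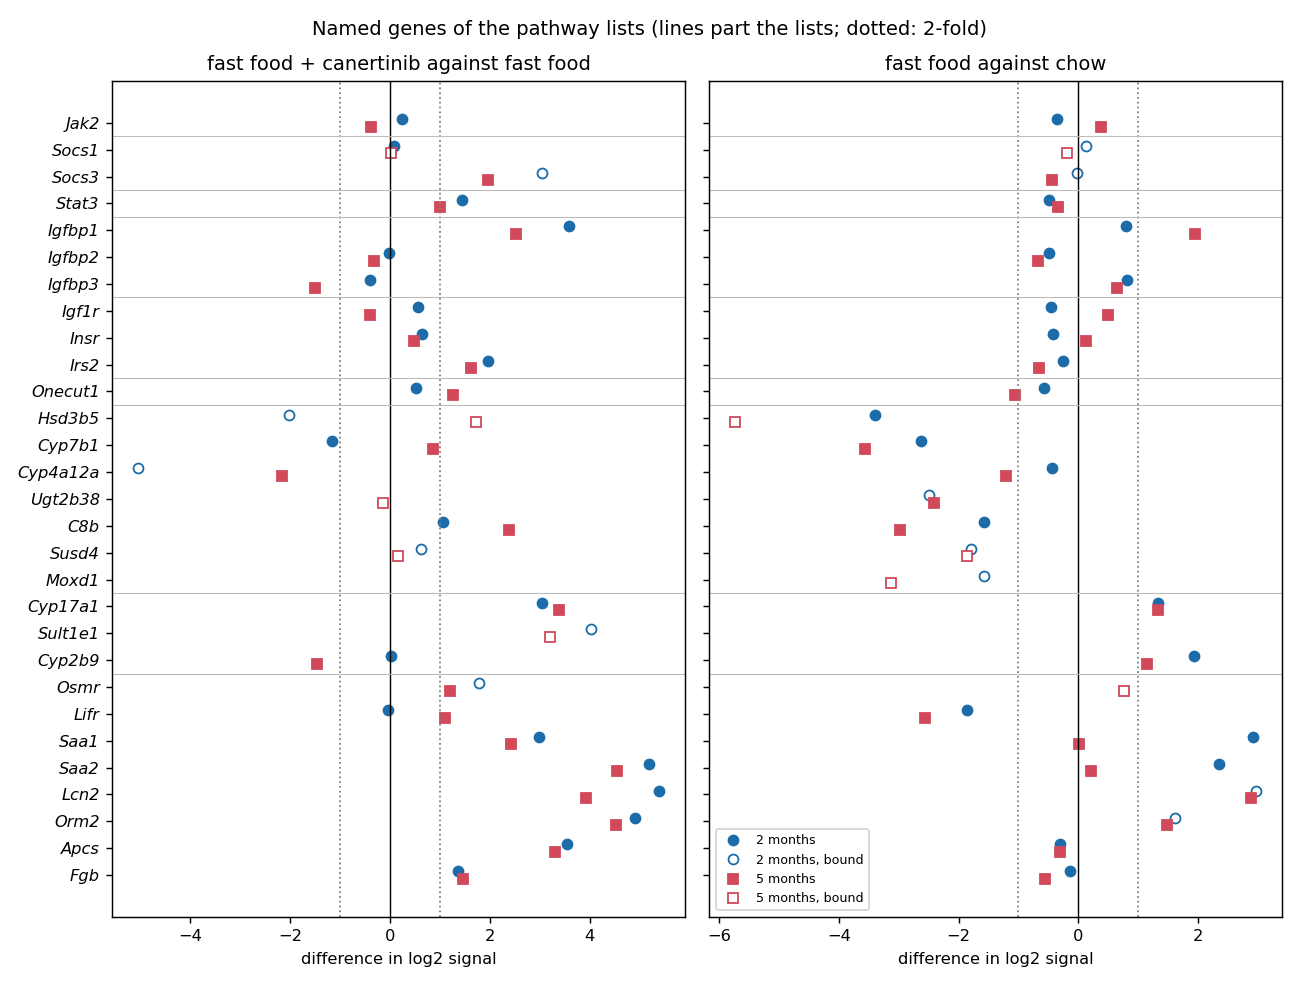
Differences in log2 signal for the named genes of the pathway lists, between fast food with canertinib and fast food (left) and between fast food and chow (right), with circles for 2 months, squares for 5 months, open symbols for bounds where an array lay at the floor, and lines between lists. Igfbp1, Socs3, Stat3 and Irs2 lie right of zero at both times on the left, where Jak2 and Igf1r lie on opposite sides of zero at the 2 times.

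Sex-biased genes that growth hormone controls in rodent liver were mostly lower on fast food where they are male-biased. Of 14 measured male-biased genes, 6 at 2 months and 12 at 5 months were at least 2-fold lower on fast food than on chow. Of all measured genes, 1.55% and 1.83% were. None of the 14 was at least 2-fold higher, against 1.98% and 2.72%, though Elovl3 was 0.18 higher on the log2 scale at 2 months. The median log2 differences were -0.85 and -1.83. Igf1 had the same sign, with -0.24 and -0.96. Between canertinib and fast food, 8 of the 14 were at least 2-fold lower at 2 months and 1 at 5 months, with 1 and 3 higher and medians of -1.53 and 0.20. Igf1 was higher with canertinib at both times, and its difference from the list was not tested.

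The male-biased genes at least 2-fold below chow on fast food at both times were Hsd3b5, Cyp7b1, Ugt2b38, C8b, Susd4 and Moxd1. Hsd3b5, a steroid-reducing enzyme of male mouse liver, had 10.6 and 732.6 in canertinib livers, 897.3 and 15.5 in fast-food livers, and 9458.2 and 11754.0 in chow livers. Its log2 difference between fast food and chow was -3.40 at 2 months and a bound of -5.73 at 5 months. Cyp7b1, an oxysterol hydroxylase gene, had 1096.6 and 2762.5 in canertinib livers, 2451.4 and 1529.3 in fast-food livers, and 15142.7 and 18196.5 in chow livers. For both genes, each canertinib and fast-food array lay below both chow arrays. Ugt2b38, a glucuronosyltransferase gene, was below the floor in 2-month fast-food livers, at 146.4, and on both canertinib arrays, at 72.5 and 50.4. Susd4 and Moxd1 were below the floor in fast-food livers at both times, and Moxd1 also with canertinib, at 49.4 and 52.8.

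The complement genes C8b and C6 were higher with canertinib than with fast food at both times, as Igf1 was, by 1.06 and 2.39 for C8b and by 0.23 and 0.90 for C6 on the log2 scale. So were Cspg5, by 0.09 and 0.25, and Susd4, with bounds of 0.62 and 0.15. At 2 months 8 of the 14 measured male-biased genes went the other way by at least 2-fold. Cyp4a12a, a fatty acid hydroxylase gene, had a bound of -5.03 at 2 months and then -2.16. Of 8 measured female-biased genes, 3 passed 2-fold upward with canertinib at each time, and 1 and then 2 downward. Cyp2b9, a female-biased cytochrome P450 gene, was 1.94 and 1.15 higher on fast food than chow on the log2 scale, and had 0.02 and -1.46 between canertinib and fast food. Cyp17a1, of steroid synthesis, rose with canertinib (limma 3.22, adjusted p = 0.00787). Sult1e1, the oestrogen sulfotransferase gene, was above the floor on the canertinib arrays alone, at 3602.6 and 2039.6, which is higher by at least 16.3-fold and 9.21-fold than in fast-food livers, where it had 147.2 and 14.6.

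Genes whose pattern over the 6 arrays was most like that of a member were ranked by the root mean square difference of mean-centred log2 signals among 9873 genes above the floor on all arrays. For Ghr these were Bckdha, Ftcd and Mrpl57, at 0.03, 0.05 and 0.06. For Igf1 they were Cyp2c37, Zfp771 and Osgepl1, at 0.06, 0.09 and 0.09. For Socs2 they were Dnajc12, Slc3a1 and Fabp5, at 0.28, 0.33 and 0.37. The distance was not scaled to a gene's range, which was widest for Socs2, so distances cannot be compared between members. For Bcl6 they were Cenpa, Parvb and Cyp2d13, at 0.09, 0.11 and 0.11.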

How the data were processed

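The deposited intensity values were MAS5 signals (version not given in the sources used here), per the submitters' processing notes. Values were linear, and their mean on every array was 500 once the top and bottom 2% of the 45101 probe sets were set aside, so the authors had scaled the arrays to each other. Of these, 34958 had 1 gene symbol in the platform annotation, which can be old, 932 had several and 9211 had none. Signals were raised to the floor of 221.4 and log2 transformed. Single arrays were compared within each study. The limma test (version 3.58.1 in R 4.3.3) used lmFit and eBayes with a variance trend on all 6 arrays, two-sided, with Benjamini-Hochberg adjustment over 13989 genes. It was also run on simulated data with independent noise and the same effect in both studies. That run does not test how the differences between the studies bear on the fit. Arrays have no read depth, and 1 array per group limits the precision.

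The members, lists and tests were chosen with earlier results of these data known. Named were the members, pathway genes at least 2-fold different in one direction at both times between fast food and chow or canertinib and fast food, 10 pathway genes always named where measured, and the 3 genes most like Ghr, Igf1, Socs2 and Bcl6. Other genes are named as values beside a result. Alternatives were quantile, median and cyclic loess normalization, a floor at the 40th or the 60th percentile or no floor, the mean over probe sets, removal of probe sets whose names end in _s_at, _x_at or _a_at, 1.5-fold and 3-fold thresholds, limma without a variance trend and, added after seeing the data, centring on hepatocyte markers. Some listed genes were not analysed here. Analyses used Python 3.11.15, NumPy 2.4.6, SciPy 1.17.1, pandas 2.3.3 and matplotlib 3.10.9.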

Additional observations from a re-analysis of the deposited data

Results flagged for a closer look

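For 7 comparisons the direction of a member differed between 2 and 5 months, and the difference between the times was not tested. Each value below is the log2 difference at 5 months minus that at 2 months. Between canertinib and fast food it was -0.47 for Stat5a, -0.75 for Stat5b and 0.67 for Bcl6. Between fast food and chow it was 0.83 for Stat5a. Between canertinib and chow it was -0.84 for Cish, -0.31 for Igf1 and -0.44 for Igfals. Several signs rested on small differences. Between canertinib and chow these were 0.01 for Igfals at 2 months and -0.02 for Igf1 at 5 months. Between canertinib and fast food at 5 months, Stat5b had -0.08 and Bcl6 0.09. The other Stat5b probe set did not change sign, with -0.28 and -0.01. That of Bcl6 had both arrays below the floor at 2 months, so no sign there, and -0.59 at 5 months. Route and duration of the drug and the length of the study differed together between the times and cannot be told apart.

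Probe sets that were not used to represent their gene carried a signal with canertinib above that of the chow arrays. Socs2 probe set 1418507_s_at had 1234.2 on the 5-month canertinib array and 303.5 on the 5-month chow array. Cux2 probe set 1450181_at had 717.6 on the 2-month canertinib array and 108.7, below the floor, on the 2-month chow array.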

How the results depend on the processing

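None of the 2-fold calls of a member changed direction under any alternative run, and neither did the signs for Socs2, Cish, Igf1, Igfals and Ghr between canertinib and fast food under the alternatives that gave them a value. Between fast food and chow at 2 months the sign for Ghr did change, from -0.04 to 0.07 with median centring. The count of members at least 2-fold different between canertinib and fast food was 2 at each time. At 2 months it was 1 with median centring, with a 3-fold threshold and with hepatocyte centring, each time Socs2, and 3 without a floor (Cux2 added) and with a 1.5-fold threshold (Stat5b added). Over all 13989 genes, 1056 were higher and 932 lower without a floor, and 1522 and 1484 with the 1.5-fold threshold. The main counts were 497 and 456. At 5 months it was 1 with the mean over probe sets (Igfals), with a 3-fold threshold and with hepatocyte centring (Socs2), 3 with median centring (Igf1 added) and with the lower floor or none (Cux2 added), and 4 with a 1.5-fold threshold. With that threshold 1150 of all 13989 genes were higher and 1294 lower, against 307 and 382 in the main setting. Median centring put 384 genes higher and 317 lower, of 13969. The lower floor put 455 higher and 601 lower, of 15336, and no floor 698 and 937, of 13989. Between fast food and chow at 2 months the count of 1 was 0 with the mean over probe sets and with a 3-fold threshold. At 5 months the count of 2 was 1 with the mean over probe sets, a 3-fold threshold and hepatocyte centring, each time Igfals, and 6 with a 1.5-fold threshold. With that threshold 1182 of all 13989 genes were higher and 1059 lower, against 381 and 256 in the main setting. Between canertinib and chow at 2 months the count of 2 was 0 with the mean over probe sets, 1 without probe sets ending in _s_at, _x_at or _a_at and with a 3-fold threshold, 3 without a floor (Cux2 added) and with hepatocyte centring (Ghr, Socs2 and Bcl6), and 4 with a 1.5-fold threshold. Over all 13989 genes, 144 were higher and 2417 lower with hepatocyte centring, and 1487 and 1412 with the 1.5-fold threshold. Without a floor 1013 were higher and 890 lower. The main counts were 531 and 383. At 5 months the count of 0 was 1 with the lower floor and with none (Cux2) and with the mean over probe sets (Ghr, lower), and 4 with a 1.5-fold threshold. With that threshold 1248 of all 13989 genes were higher and 1402 lower, against 395 and 380 in the main setting. The lower floor put 588 higher and 598 lower, of 15336, and no floor 875 and 927, of 13989. The mean over probe sets put 246 higher and 232 lower, of 14026. The mean over probe sets took in the Socs2 probe sets at the floor. In limma the count of 0 between canertinib and fast food was 1 without a floor (Socs2) and 2 with hepatocyte centring (Ghr and Socs2), and between fast food and chow 2 with that centring (Igfals and Socs2). The centring also shifted the median of all genes between fast food and chow, by -0.24 at 2 months and 0.33 at 5 months. How many of all genes limma called there, and without a floor, is not given here. The limma fit held the study as a term in every setting, so arrays were compared within a study there. Signals near the floor limit Cux2 and the fast-food values of Socs2. Cux2 passed the main floor on the canertinib arrays alone, which fixes the direction of its added calls.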
